A study of Mus musculus with 2 samples.

Results

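Inflammatory signalling carries its own brakes, and 9 genes of this kind were followed in sorted spleen cells from mice infected with Listeria monocytogenes. The genes were Tnfaip3, Tnip1, Tnip2, Tnip3, Cyld, Zfp36, Zfp36l1, Zfp36l2 and Zc3h12a, taken by symbol from a table of 30538 genes, and all 9 were found. They fall into a ubiquitin arm and an mRNA decay arm. In the ubiquitin arm, Tnfaip3 encodes A20, an enzyme that edits ubiquitin chains on signalling proteins upstream of NF-kB. The TNIP proteins are adaptors that bind A20, and TNIP1 and TNIP2 also bind ubiquitin chains. CYLD is a deubiquitinase that trims chains from the same receptor complexes. In the decay arm, tristetraprolin (the product of Zfp36) and its relatives ZFP36L1 and ZFP36L2 bind AU-rich elements in the 3′ UTRs of cytokine mRNAs and recruit the deadenylase that starts their decay. Regnase-1, encoded by Zc3h12a, is an endonuclease that cuts stem-loops in the 3′ UTRs of mRNAs such as that of Il6. In macrophages several of these brakes are themselves switched on by the signals they restrain.

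The cells were CD11b+, Ly6G- and Ly6C-low, about 100000 per sort, and were taken from spleens at day 3 after intravenous infection with 100000 bacteria. Sequencing covered 2 libraries. The control library came from C57BL/6 animals, and the other from Ch25h-/- animals, in which cholesterol 25-hydroxylase, the source of 25-hydroxycholesterol, is missing. Both groups were infected, so the samples have no uninfected baseline. The number, age and sex of the mice behind each library are not given in the sources used here. The question was how expression in these cells differs when Ch25h is missing. With 1 library per genotype there was no replicate check, and no p-value was computed. Intervals are exact 95% intervals for counting error alone, and since no molecular identifiers were used, several reads can stem from 1 molecule. A difference below is therefore one between 2 libraries.

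Gene counts summed to 16957371 for C57BL/6 and to 15986392 for Ch25h-/-. Ch25h itself had 3 counts in the C57BL/6 library and 0 in the Ch25h-/- library (upper limit 3.69), so at this depth it did not check the genotype labels. The cells are labelled splenic macrophages. Mononuclear phagocyte genes such as Csf1r (324 and 239 CPM, counts scaled to a library of 1000000, in C57BL/6 and Ch25h-/-) and Itgam, the gene of CD11b (706 and 877 CPM), were present in both libraries. Cytotoxic lymphocyte genes were present too, with a summed level over 12 markers of 13911 and 22183 CPM.

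All 9 genes were measured, meaning a mean of at least 1 CPM over both libraries, where CPM was computed with TMM factors. A gene was called lower or higher in the Ch25h-/- library when the log2 ratio (Ch25h-/- over C57BL/6) was at least 1 in size and its interval lay on 1 side of 0. Tnip3 and Zfp36 were called lower and none was called higher. Those 2 of 9 genes are 22.2%, beside 5.77% of all 11972 measured genes called lower, 2.07% called higher and 7.84% called in either direction. Of the 9 log2 ratios, 8 were under 0 (88.9%), beside 48.2% of all measured genes, and Cyld alone lay above 0. The median log2 ratio was -0.65 for the 9 genes and 0.01 for all measured genes. In a bulk sample, fewer cells of a type and less RNA per cell cannot be told apart.

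**Figure D1:**
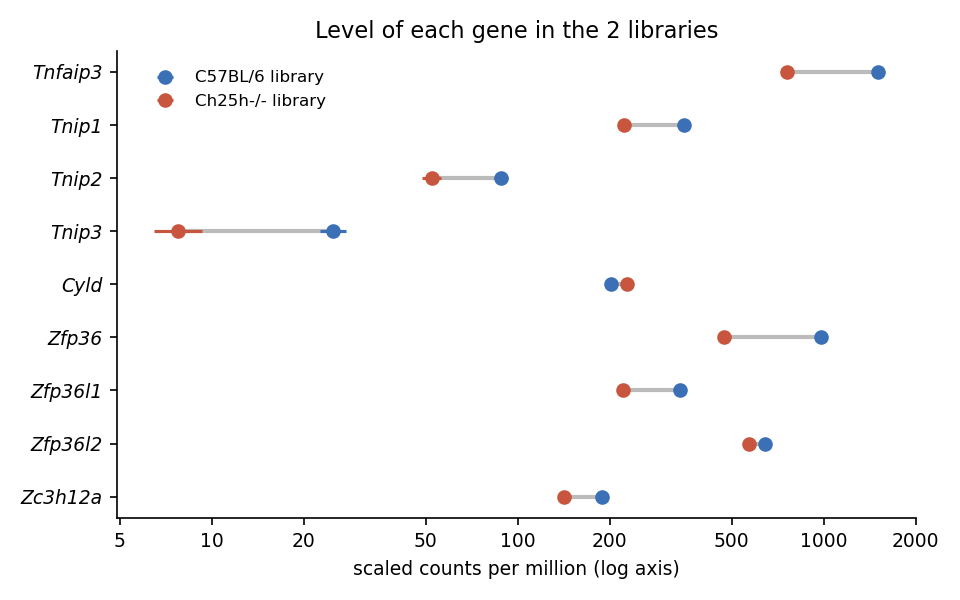
Level of each of the 9 genes in CPM (TMM-scaled, log axis), 1 point per library, with bars for the exact 95% Poisson counting interval (mostly smaller than the point). The Ch25h-/- point lies left of the C57BL/6 point for 8 genes and right of it for Cyld.

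Tnfaip3, the gene of A20, was second only to Zfp36 in level per kilobase of exon in the C57BL/6 library (208 CPM per kilobase). The GRCm38 annotation places it on chromosome 10, 19000910 to 19015657, minus strand (ENSMUSG00000019850). Its level was 1503 CPM (interval 1485 to 1522) in the C57BL/6 library and 761 CPM (748 to 775) in the Ch25h-/- library, from 25722 and 12060 counts. The intervals of the levels did not overlap. The Ch25h-/- level was 50.6% of the C57BL/6 level, a log2 ratio of -0.98 (-1.01 to -0.95), just short of the 2-fold rule. Scaling by total counts instead of TMM gave -1.01 and a call of lower. Of all measured genes, 5.99% had a log2 ratio as low or lower.

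The 3 TNIP genes encode the ABIN adaptors of A20, and all had lower values in the Ch25h-/- library. Tnip1 (chromosome 11, 54910785 to 54962917, minus strand) stood at 349 CPM (341 to 358) in the C57BL/6 library and 222 CPM (215 to 229) in the Ch25h-/- library. That is a log2 ratio of -0.65 (-0.72 to -0.59). Tnip2 (chromosome 5, 34496087 to 34513991, minus strand) stood at 88.3 CPM (83.9 to 92.9) and 52.3 CPM (48.8 to 56.0), a log2 ratio of -0.75 (-0.88 to -0.63). Neither reached 2-fold, and their log2 ratios differed by 0.10 with an interval that spanned 0 (-0.04 to 0.24).

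Tnip3, the gene of the adaptor ABIN-3, had the lowest level and the lowest log2 ratio of the 9. It lies on chromosome 6, 65525313 to 65634040, plus strand. It had 426 counts in the C57BL/6 library and 123 in the Ch25h-/- library, or 24.9 CPM (22.6 to 27.4) and 7.76 CPM (6.45 to 9.26). The level was 3.21-fold lower, a log2 ratio of -1.68 (-1.98 to -1.39), and 1.80% of measured genes had a ratio as low or lower. The log2 ratio of Tnip1 exceeded that of Tnip3 by 1.03 (0.73 to 1.33), and that of Tnip2 exceeded it by 0.93 (0.61 to 1.25). Tnip3 supplied 1.70% of the TNIP family level per kilobase of exon in the C57BL/6 library and 0.858% in the Ch25h-/- library, so the family's level was set almost wholly by Tnip1 and Tnip2. These shares became 3.23% and 1.64% when the longest transcript was used as the length, because the annotated exons of Tnip3 add up to 10916 bases and its longest transcript to 4627. The family sum was 134 CPM per kilobase in the C57BL/6 library and 82.9 in the Ch25h-/- library, 1.62-fold lower.

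Cyld, the second deubiquitinase among the 9, did not share this direction. The gene lies on chromosome 8, 88697028 to 88751945, plus strand. It stood at 202 CPM (196 to 209) in the C57BL/6 library and 227 CPM (220 to 235) in the Ch25h-/- library, from 3464 and 3596 counts. Its log2 ratio was 0.17 (0.10 to 0.23), with no call, and 67.0% of measured genes had a ratio as low or lower. The log2 ratio of Cyld exceeded that of Tnfaip3 by 1.15 (1.07 to 1.22). Tnfaip3 had 7.43 counts for each count of Cyld in the C57BL/6 library (7.17 to 7.70) and 3.35 in the Ch25h-/- library (3.23 to 3.48), a ratio of counts that does not depend on scaling.

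**Figure D2:**
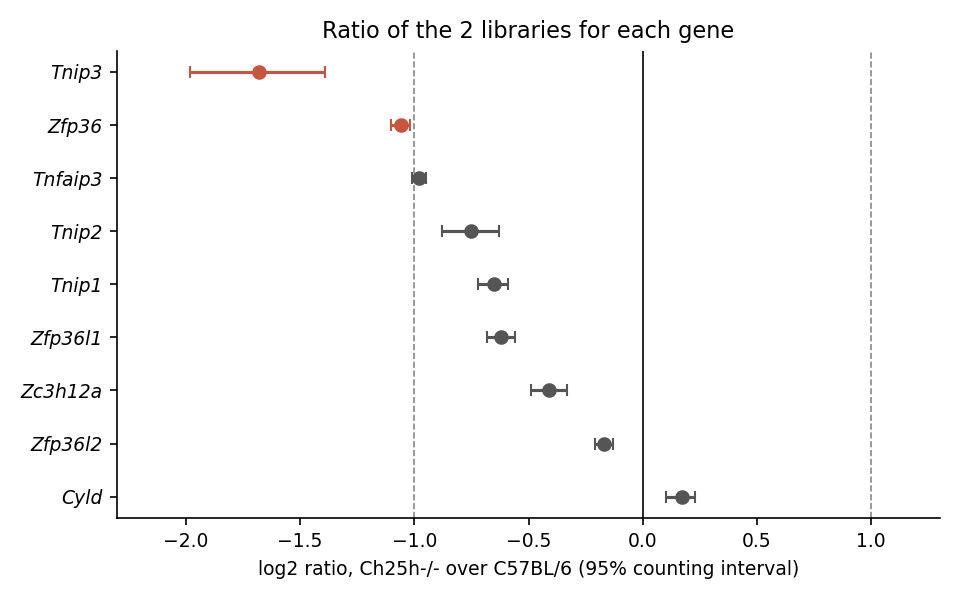
Log2 ratio of the Ch25h-/- library over the C57BL/6 library for each gene (points) with its exact 95% counting interval (bars), with dashed lines at the 2-fold thresholds of -1 and 1. Tnip3 (-1.68) and Zfp36 (-1.06) lie beyond -1, Tnfaip3 (-0.98) next to it, and Cyld (0.17) is alone above 0.

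The NF-kB family is a known inducer of A20 and its adaptors, so the promoter windows of the genes were read for kappaB motifs. The windows are RefSeq's for GRCm38.p6, from 250 bases before to 50 bases after an annotated start, and 8 of the 9 genes had at least 1. Zfp36l2 had none. The consensus kappaB motif, searched on both strands, was present for Tnfaip3, Tnip1, Tnip3 and Cyld, 4 of 8 genes, beside 6.32% of measured genes with a window and 4.51% of all windows. The 4 windows are shown because they include both the gene with the lowest log2 ratio and the gene above 0. Each reads 5′ to 3′ on the gene's strand, with capitals for kappaB matches.
Tnfaip3, chr10:19015361-19015660, minus strand: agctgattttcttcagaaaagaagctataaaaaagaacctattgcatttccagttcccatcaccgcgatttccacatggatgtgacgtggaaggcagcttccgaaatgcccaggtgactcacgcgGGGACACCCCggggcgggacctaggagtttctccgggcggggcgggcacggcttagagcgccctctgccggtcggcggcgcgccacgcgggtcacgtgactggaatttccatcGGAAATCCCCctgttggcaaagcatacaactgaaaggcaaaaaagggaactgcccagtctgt
Tnip1, chr11:54962891-54963190, minus strand: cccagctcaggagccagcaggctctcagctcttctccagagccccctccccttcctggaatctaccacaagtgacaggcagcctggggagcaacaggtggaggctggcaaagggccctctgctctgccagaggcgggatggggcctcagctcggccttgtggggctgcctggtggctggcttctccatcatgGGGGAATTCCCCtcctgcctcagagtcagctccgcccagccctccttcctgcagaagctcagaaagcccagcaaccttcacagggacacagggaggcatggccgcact
Tnip3, chr6:65590148-65590447, plus strand: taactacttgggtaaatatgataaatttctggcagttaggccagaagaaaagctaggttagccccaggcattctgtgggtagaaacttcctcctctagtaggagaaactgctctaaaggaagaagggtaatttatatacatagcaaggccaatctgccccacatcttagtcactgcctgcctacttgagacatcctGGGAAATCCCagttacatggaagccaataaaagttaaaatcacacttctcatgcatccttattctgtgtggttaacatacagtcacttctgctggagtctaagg
Cyld, chr8:88696778-88697077, plus strand: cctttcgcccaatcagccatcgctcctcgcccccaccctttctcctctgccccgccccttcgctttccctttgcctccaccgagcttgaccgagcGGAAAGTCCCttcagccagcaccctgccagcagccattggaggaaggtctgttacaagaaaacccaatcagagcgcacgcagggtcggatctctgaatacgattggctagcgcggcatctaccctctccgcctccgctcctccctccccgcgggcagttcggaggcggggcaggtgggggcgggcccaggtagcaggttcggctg

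Tnfaip3 held separate matches from -125 to -116 and from -12 to -3 relative to the RefSeq start. Its second RefSeq window held none. The match of Tnip1 was a run of overlapping sites from -58 to -47. Tnip3 held GGGAAATCCC from -54 to -45, which fits the motif on both strands. The windows of Tnip3 and Zfp36 lie inside the annotated span of the gene, so they belong to starts other than the outermost one. Cyld held 1 match, from -155 to -146, so the presence of these letters did not divide the genes by direction. A looser pattern, GGG and CC with any 5 bases between them, was found for 6 of the 8 genes and for 72.0% of measured genes. The promoter of Zfp36 held no kappaB match but was alone among the 8 in having a CArG box, the motif bound by serum response factor, from -58 to -49 (1.46% of measured genes). The AP-1 motif TGANTCA was found for Tnfaip3 and Zfp36l1 (6.25% of measured genes), and the cyclic AMP response element TGACGTCA for none of the 8 (3.72%). Among measured genes with a window, 8.98% of the 568 with a kappaB match and 5.29% of the 8418 without one were called lower, and their median log2 ratios were -0.04 and 0.02. A match is a description of letters and does not show binding.

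In the decay arm, Zfp36 was called lower and its relatives had log2 ratios nearer 0. Zfp36, the gene of tristetraprolin, lies on chromosome 7, 28376784 to 28380253, minus strand. It stood at 982 CPM (967 to 997) in the C57BL/6 library and 472 CPM (462 to 483) in the Ch25h-/- library, from 16808 and 7483 counts. The level was 2.08-fold lower, a log2 ratio of -1.06 (-1.10 to -1.02), and the call held when the whole interval had to lie beyond 2-fold. Zfp36l1 (chromosome 12, 80107754 to 80113013, minus strand) stood at 339 CPM (330 to 347) and 220 CPM (213 to 227), a log2 ratio of -0.62 (-0.68 to -0.56). Zfp36l2 (chromosome 17, 84183931 to 84187947, minus strand) stood at 642 CPM (630 to 655) and 571 CPM (560 to 583), a log2 ratio of -0.17 (-0.21 to -0.13). Neither relative was called. The log2 ratio of Zfp36l1 exceeded that of Zfp36 by 0.43 (0.36 to 0.51), and that of Zfp36l2 exceeded it by 0.89 (0.83 to 0.94).

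The make-up of the ZFP36 family therefore differed between the libraries. Per kilobase of exon, Zfp36 stood at 283 CPM and Zfp36l2 at 182 CPM in the C57BL/6 library, where Zfp36 took 48.9% of the family level and Zfp36l2 took 31.5%. In the Ch25h-/- library Zfp36 stood at 136 CPM per kilobase and Zfp36l2 at 162, or 36.6% and 43.6% of the family. Zfp36l1 took 19.6% and 19.8%. With the longest transcript as the length, Zfp36 remained slightly ahead in the Ch25h-/- library (169 against 162 CPM per kilobase, or 41.8% against 40.0%), so which of them leads there depends on the length used. The ratio of counts, not adjusted for length, was 1.53 counts of Zfp36 per count of Zfp36l2 (1.49 to 1.57) in the C57BL/6 library. In the Ch25h-/- library it was 0.826 (0.801 to 0.852). That ratio does not show which gene leads within a library, but its fold difference between the libraries does not depend on the length used. The family sum was 578 CPM per kilobase in the C57BL/6 library and 372 in the Ch25h-/- library, 1.56-fold lower.

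**Figure D3:**
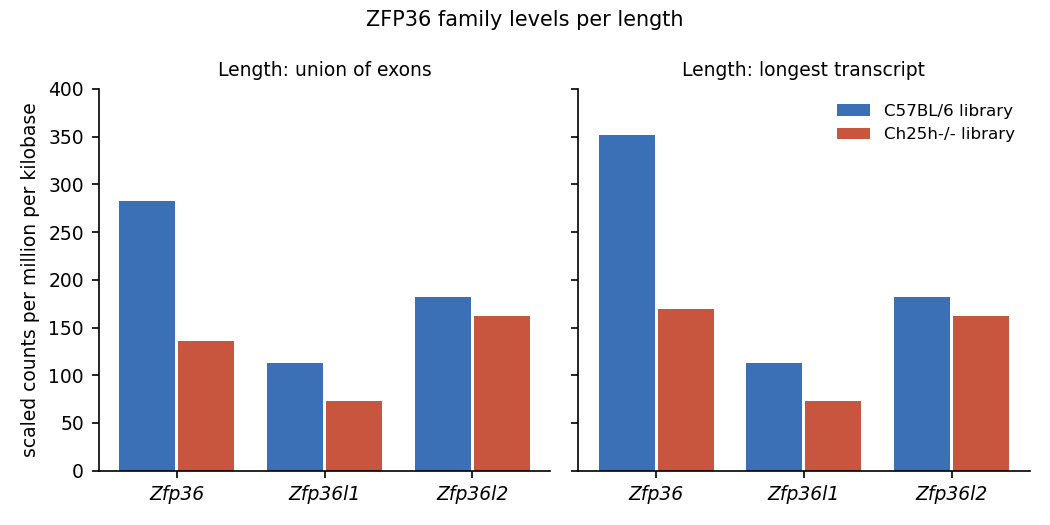
Levels of the 3 ZFP36 family genes as CPM per kilobase, with 1 bar per library, for 2 definitions of gene length. Zfp36 is highest in the C57BL/6 library in both panels, while in the Ch25h-/- library it lies below Zfp36l2 by the union of exons (136 against 162) and just above it by the longest transcript (169 against 162).

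The ZFP36 transcripts carry the kind of element that their own proteins bind. The heptamer TATTTAT, on the sense strand of the longest annotated 3′ UTR of a complete coding transcript, occurred 3 times each in Zfp36, Zfp36l1 and Zfp36l2. That many or more occurred in 3.97% of 11483 measured genes, a share not adjusted for length. The 3′ UTRs of Zfp36, Zfp36l1 and Zfp36l2 have 774, 1835 and 1822 bases, beside a median of 1174 for measured genes. Per kilobase the heptamers came to 3.88, 1.63 and 1.65. Tnfaip3 and Cyld had 2 matches each, Tnip3 had 1, and Tnip1, Tnip2 and Zc3h12a had none. The stricter nonamer TTATTTATT occurred in Tnfaip3 and the 3 ZFP36 genes, beside 8.38% of measured genes. The densest stretch of 30 bases is shown for Zfp36, with those of Tnf, Il1b and Ptgs2, known tristetraprolin targets, for comparison. They come from GENCODE M21 transcripts (GRCm38) and read 5′ to 3′ with T for U, with capitals for the heptamer.
Zfp36, chr7:28376958-28376987, minus strand: ccttTATTTATgacgacttTATTTATtgta
Tnf, chr17:35199677-35199706, minus strand: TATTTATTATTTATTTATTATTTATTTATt
Il1b, chr2:129364802-129364831, minus strand: cttaccTATTTATTTATgTATTTATtgatt
Ptgs2, chr1:150105789-150105818, plus strand: actgaccaTATTTATTTATTTATgtgaaga

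In Zfp36 the stretch held 2 separate heptamers, whereas that of Tnf held 5, some of which overlap. The whole 3′ UTR of Tnf held 8 heptamers and that of Ptgs2 held 6. Over all measured genes, those with and without the heptamer differed little. Genes with 3 or more had a median log2 ratio of 0.06 and 6.80% called lower, beside 0.01 and 5.53% for genes with none.

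Zc3h12a, the gene of Regnase-1, lies on chromosome 4, 125118423 to 125127840, minus strand. It stood at 189 CPM (183 to 196) in the C57BL/6 library and 142 CPM (136 to 148) in the Ch25h-/- library, from 3237 and 2253 counts. The log2 ratio was -0.41 (-0.49 to -0.33), with no call. Its relatives Zc3h12d (97.2 and 68.7 CPM, -0.50) and Zc3h12c (28.6 and 16.3 CPM, -0.81) also had lower values in the Ch25h-/- library without reaching 2-fold. Zc3h12b, with 6 and 11 counts, was not measured. Zc3h12a made up 70.1% of the family level per kilobase of exon in the C57BL/6 library and 71.9% in the Ch25h-/- library.

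From lowest to highest, the log2 ratios ran Tnip3, Zfp36, Tnfaip3, Tnip2, Tnip1, Zfp36l1, Zc3h12a, Zfp36l2 and Cyld. Of the 8 neighbouring pairs in this order, Tnip2 with Tnip1 and Tnip1 with Zfp36l1 (a difference of 0.03, interval -0.05 to 0.12) did not differ beyond counting error. Zfp36 and Tnfaip3 differed by 0.07 (0.02 to 0.13), a gap that says nothing about animals or sorts. By level per kilobase of exon, the order in the C57BL/6 library was Zfp36 (283 CPM), Tnfaip3 (208), Zfp36l2 (182), Zfp36l1 (113), Tnip1 (98.7), Zc3h12a (65.6), Tnip2 (32.9), Cyld (16.1) and Tnip3 (2.28). In the Ch25h-/- library it was Zfp36l2 (162), Zfp36 (136), Tnfaip3 (105), Zfp36l1 (73.5), Tnip1 (62.7), Zc3h12a (49.3), Tnip2 (19.5), Cyld (18.0) and Tnip3 (0.711). With the longest transcript as the length, Tnip1 stood above Zfp36l1 in both libraries (118 against 113 CPM per kilobase in C57BL/6 and 74.6 against 73.5 in Ch25h-/-). In the Ch25h-/- library that length also put Cyld above Tnip2 (28.3 against 25.9) and Zfp36 above Zfp36l2, so the order of these neighbours depends on the length used. Zfp36 was among the top 0.610% of measured genes in the first library and the top 2.01% in the second, and Tnip3 was exceeded by 77.1% and 90.6% of them.

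**Figure D4:**
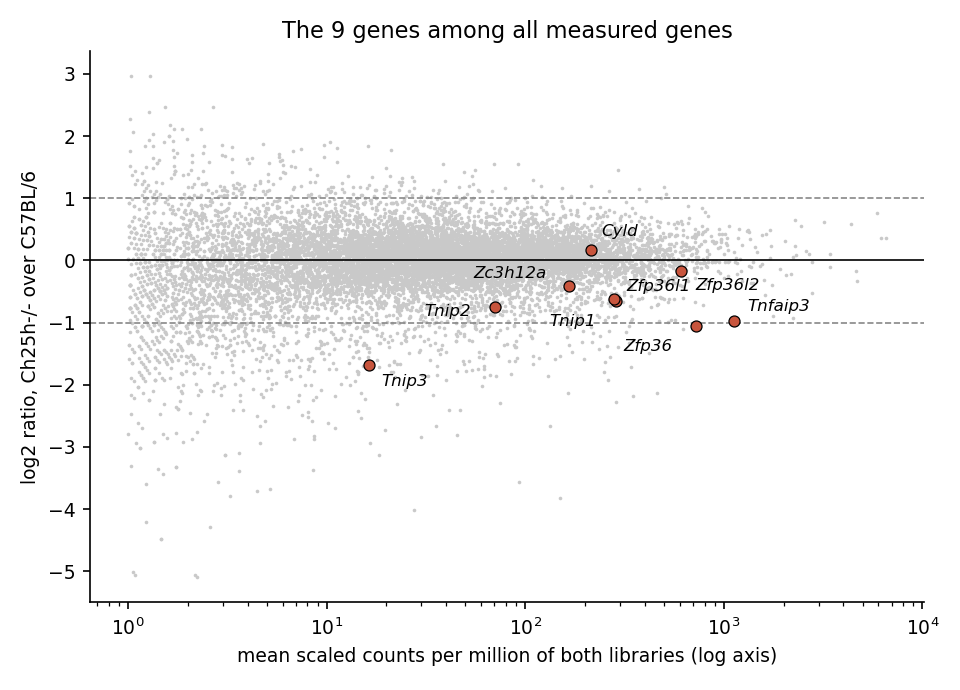
Every measured gene (grey) and the 9 genes (red) by mean CPM over both libraries (log axis) and log2 ratio, with dashed lines at -1 and 1. Zfp36 (-1.06) and Tnfaip3 (-0.98) lie near -1 among abundant genes, and Tnip3 lies below -1 at a mean of 16.3 CPM.

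Of the 9 genes, 8 had a mean of at least 50 CPM, a range in which 2.16% of 4529 measured genes were called lower. Zfp36 was the only one of these 8 called. Tnip3, the other called gene, had a mean of 16.3 CPM. In the range from 5 to 50 CPM, 4.49% of 5548 measured genes were called lower. The library protocol as given in the labels does not say whether counting used strand. Gm26669, a lincRNA on the opposite strand, overlaps 55.92% of the exon bases of Zfp36l1 and was listed with 42 counts in the C57BL/6 library and 7 in the Ch25h-/- library. Antisense genes overlap 3.6% of the exon bases of Zfp36 and 2.97% of those of Zfp36l2. Outside the overlapping loci, 0 to 3.12% of the 50-base stretches of the 9 genes recurred in transcripts of another gene, highest for Zfp36l1.

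Genes of the machinery around A20 and CYLD lay on both sides of 0. Of 24 partners (the linear ubiquitin ligase, its partners and the kinases of the TNF receptor complex), all were measured, 12 had a log2 ratio under 0 and 12 over 0, and the median was 0.03. None was called in either direction, beside 7.84% of all measured genes. Calls were rarer among abundant genes, with 2.16% lower and 0.574% higher at means from 50 CPM up, so nothing is read from the absence of a call in a list of this size. Ikbkb, which encodes the kinase IKK-beta, was lowest (419 and 253 CPM, log2 ratio -0.73, interval -0.79 to -0.67), and Tab3 was highest (0.39, interval 0.22 to 0.55). The ubiquitin ligase genes Birc2 (245 and 174 CPM, -0.49, interval -0.56 to -0.42), Traf6 (141 and 105 CPM, -0.42, interval -0.51 to -0.33) and Birc3 (373 and 295 CPM, -0.34, interval -0.39 to -0.28) also had lower values in the Ch25h-/- library without reaching 2-fold. Tab2, with the most counts, stood at 480 and 513 CPM (0.10). The A20 cofactor genes Tax1bp1 (-0.23), Itch (0.13) and Rnf11 (0.29) lay on both sides of 0. The linear ubiquitin ligase genes Rnf31 (-0.02), Rbck1 (-0.01) and Sharpin (-0.22), the linear chain protease gene Otulin (0.10) and Spata2, which bridges CYLD to that ligase (-0.20), all stood within 0.25 of 0. Among 24 measured genes of other deubiquitinases, none was called and the median was 0.07. By log2 ratio, Otud1 was lowest (23.0 and 12.6 CPM, -0.87), Usp2 was highest (0.69) and Usp7 had the most counts (353 and 337 CPM, -0.07).

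Genes of the decay machinery also lay on both sides of 0. Of 15 measured regulators of inflammatory mRNA decay, 8 had a log2 ratio under 0 and 7 over 0, with a median of -0.03. None was called, beside 7.84% of all measured genes, and nothing is read from that. Zc3h12c was lowest and Elavl1, the gene of the stabilising protein HuR, highest (0.31). The regulator with the most counts was Malt1 (681 and 443 CPM, -0.62, interval -0.66 to -0.58), whose protease product cleaves A20, CYLD and Regnase-1. Roquin genes Rc3h1 (-0.03) and Rc3h2 (0.04) and Mapkapk2, the gene of the kinase that inactivates tristetraprolin (-0.10), stood near 0. Of 35 deadenylation, decapping and exosome genes, 14 were under 0 and 21 over 0 and none was called (read in the same way), with a median of 0.08, from Tob2 (-0.58) to Exosc9 (0.60). Btg1, with the most counts, stood at 1255 and 1083 CPM (-0.21), and Cnot1, the scaffold to which tristetraprolin binds, at 374 and 395 CPM (0.08).

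Most measured transcripts known as targets of these decay factors had a log2 ratio under 0. Of 17 measured tristetraprolin targets, 11 were called lower and none higher (5.77% of all measured genes were called lower), 13 had a log2 ratio under 0 and 4 over 0, and the median was -1.33. The lowest were Cxcl1 (-3.71), Ptgs2 (-2.67), Ccl2 (-1.91) and Dusp1 (-1.71). Tnf, the best known target, stood at 77.5 and 36.0 CPM (-1.11, interval -1.25 to -0.96). The 4 targets above 0 were Lif (0.58), Il10 (0.52), Ifng (0.49) and Csf2 (0.43), and Ifng had the most counts of the list at 1094 and 1540 CPM. Of 12 measured Regnase-1 targets, 5 were called lower and none higher, with a median of -0.84. The 5 called were Cxcl1, Ptgs2, Cxcl2 (-1.36), Il6 (-1.36) and Il12b (-1.33). Tfrc was highest (0.84), and Nfkbiz, with the most counts, stood at 581 and 383 CPM (-0.60). The target lists share 5 genes, 26.3% of the first and 35.7% of the second, and Il2 was at 0 counts in both libraries.

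Other NF-kB response genes had a median log2 ratio of -0.66, next to the -0.65 of the 9 brakes. Of 15, all measured, 5 were called lower and none higher, beside 5.77% of all measured genes called lower and 2.07% called higher. With the interval required to lie wholly beyond 2-fold, 3 calls were left. The 5 were Ebi3 (-1.33), Cd83 (-1.20), Ier3 (-1.19), Cd40 (-1.12) and Tnf. Nfkbia, which encodes the inhibitor IkB-alpha and had the most counts, stood at 876 and 550 CPM (-0.67, interval -0.71 to -0.63). Ccl4 was highest (0.27), and Icam1 (0.09) and Bcl3 (0.04) were also above 0. The lists overlap, since Tnf and Ier3 are also on the tristetraprolin list.

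**Figure D5:**
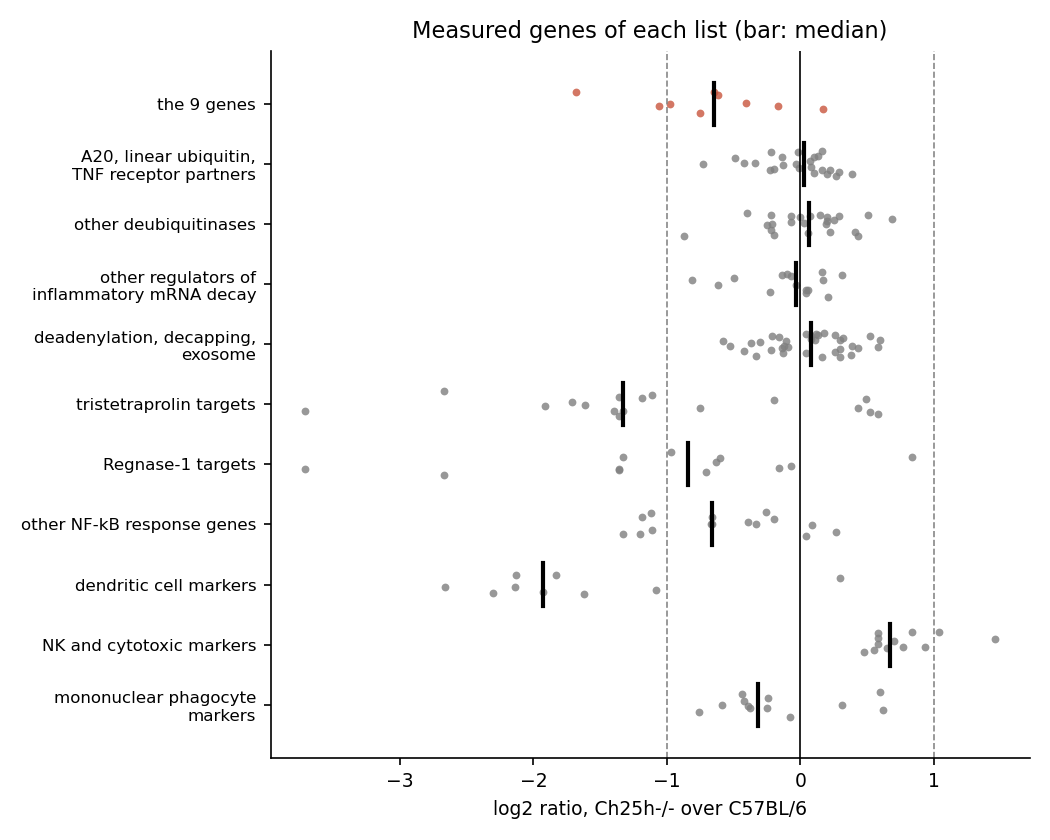
Log2 ratio of every measured gene (points) in each list, with the list's median as a black bar and dashed lines at -1 and 1. The 9 brakes have a median of -0.65 between the other NF-kB response genes (-0.66) and the partner and decay machinery (medians from -0.03 to 0.08), while dendritic cell markers (-1.93) and cytotoxic lymphocyte markers (0.67) lie on opposite sides.

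Markers of several cell types also differed between the libraries. Beside the counts below, 5.77% of all measured genes were called lower and 2.07% higher. Of 9 measured conventional dendritic cell markers, 8 were called lower, with a median log2 ratio of -1.93 over all 9. Itgax went the other way (272 and 336 CPM, 0.30, interval 0.25 to 0.36). The summed level of the list went from 1931 to 766 CPM, with the largest falls in Fscn1 (746 and 171) and Ccr7 (413 and 109). The list's other markers were not measured, namely Clec9a (5 and 13 counts), Cd209a (11 and 5) and Xcr1 (0 and 6). Of 12 red pulp and marginal zone macrophage markers, 7 were called lower (median -1.12, summed level 382 and 220 CPM). Of 10 B cell markers, 2 were called lower, with all 10 under 0 (median -0.76, 1495 and 915 CPM). All 12 cytotoxic lymphocyte markers lay above 0 with 2 called higher (median 0.67), as did 11 of 12 neutrophil markers with 5 called higher (median 0.87, 1217 and 2135 CPM). Of 12 T cell markers, 1 was called lower and 1 higher (median 0.06, 1093 and 1467 CPM). Of 8 Ly6C-high monocyte markers, 2 were called higher (median 0.50, 2459 and 3332 CPM). Mononuclear phagocyte markers had no call, with 9 of 12 under 0 and 3 above (median -0.31, 1945 and 1996 CPM). Those above 0 included Itgam (706 and 877 CPM) and Lyz2 (223 and 337 CPM), so the near-equal sums do not describe most of the list. Apart from Xcr1, no marker of these lists was at 0 in either library. The part of these markers in the values of the 9 brakes was not tested.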

How the data were processed

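Per the labels' protocols, RNA of the sorted cells was prepared with TRIzol and sequenced after KAPA HyperPrep library preparation. The submitters' processing notes list the aligner GSNAP, the counter featureCounts from Subread 1.5.2, then edgeR 3.26.8, and FastQC 0.11.9 for read quality, with GRCm38 and mm10 as builds. The authors deposited whole read counts per gene, used as given. Strand setting and treatment of multi-mapping reads are not given in the sources used here.

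Counts were scaled with TMM (edgeR 4.0.16, R 4.3.3). Ratios and Clopper-Pearson or conditional exact 95% intervals came from scipy 1.17.1 (Python 3.11.15, pandas 2.3.3, numpy 2.4.6). A count of 0 set against a count above 0 was taken as 3 counts (0.175 CPM in C57BL/6 and 0.189 CPM in Ch25h-/-), which no measured gene needed. Figures were drawn with matplotlib 3.10.9. Calls followed the 2-fold rule in the text. Differences between members were intervals of the ratio of their ratios. Levels per length used the union of annotated exons in GENCODE M21 (GRCm38), which has 30126 of the 30538 gene IDs. Adgre1 and Cnot9 are in the table as Emr1 and Rqcd1.

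The members, lists and alternatives were chosen with earlier results of these data known. Named were all 9 members, Ch25h and, for each pathway list, its called genes (up to 4), its highest and lowest log2 ratio and the gene with the highest mean CPM. Where a list had 5 called genes, all 5 were named. Others were named for their role or their value after their values were seen. Protein sequences were not used here, and 1 sequence is not reported here. The steps were tested on simulated counts. As alternatives, 4 other scalings were tried (size factors of DESeq2 1.42.0, library totals, the upper quartile, and TMM without 41 genes of abundant classes), then a minimum of 5 CPM or of 1 count, adding 2 to each scaled count, and requiring the interval to lie entirely past 2-fold.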

Additional observations from a re-analysis of the deposited data

How the results depend on the processing

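No alternative reversed a direction. The 4 other scalings shift all genes alike and moved log2 ratios by at most 0.03, while the filters and the stricter interval rule cannot move a ratio. Tnip3 and Zfp36 were called lower in all 9 settings, the chosen one included. Tnfaip3 was called lower with total counts only, which gave 3 genes called lower. Against 691 genes called lower and 248 higher over the whole table, a filter at 5 CPM left 347 and 120, an interval wholly beyond 2-fold left 318 and 67, and no filter beyond 1 count gave 1031 and 435. The stricter interval left 3 of the 5 calls among other NF-kB response genes. Of the 9 genes, 4 held the AU-rich nonamer against 6 with the heptamer. Of the 8 genes with a promoter window, 6 held the looser kappaB pattern against 4 with the consensus. Levels per length moved with the length used. By the longest transcript and not by the union of exons, Tnip1 stood above Zfp36l1 in both libraries, and Zfp36 (169 CPM per kilobase) above Zfp36l2 and Cyld above Tnip2 in the Ch25h-/- library. No paired analysis was possible because each genotype has 1 library, and for the same reason no library could be left out. Depth bounds the counting intervals only, and the spread between mice, sorts and library preparations was not measured.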
